A study of Mus musculus with 4 samples.

Results

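Transcripts of 40 cell cycle and DNA replication genes were followed in 4 RNA sequencing libraries of ILC1s from mice. ILC1s, the type 1 innate lymphoid cells, live in tissues and resemble natural killer (NK) cells, and here they were selected by the integrin CD49a. The genes were taken by symbol from a table of 40481 Ensembl genes, in which all 40 were found. They comprised 9 genes of replication licensing, 5 of nucleotide supply and the replication clamp, 3 regulators of the step from G1 into S phase, 21 mitotic genes and 2 further genes of chromatin and microtubules. The 2 control libraries, numbered 1 and 2, came from Inpp4b flox/flox mice, and the 2 libraries labelled knockout, numbered 3 and 4, from Ncr1-iCre Inpp4b flox/flox mice. Every library thus carried the floxed alleles, and the iCre transgene, named after the gene of the NK receptor NKp46, was present only in the second group, so an effect of the transgene and one of deletion cannot be told apart. Liver is given as the tissue of control library 1, and the other labels name only the cell type. Age, treatment and the number of animals per library are not stated in the sources used here, and p-values therefore measure only the spread between these libraries, which may be technical.

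Cells that prepare to divide first license their replication origins in G1, when the origin recognition complex, CDC6 and CDT1 load the MCM helicase ring onto DNA. The ring is then activated with the GINS complex and CDC45, and DNA is copied with the sliding clamp PCNA and the nucleotides made by ribonucleotide reductase, thymidylate synthase and thymidine kinase. Transcripts of the mitotic apparatus accumulate later, in G2 and mitosis, and are used as markers of dividing cells. Promoters of the early genes often carry sites for E2F factors. Those of the late genes often carry a CCAAT box and a cell cycle genes homology region (CHR), and through the CHR the DREAM complex holds them silent in resting cells.

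RefSeq promoters (assembly GRCm38.p6, 250 bases before to 50 after the start) were matched for 32 of the 40 genes, and both strands were searched for TTTGAA as the CHR, for CCAAT, and for TTTGGCGC, TTTCCCGC, TTTCGCGC or TTTGCCGC as E2F letters. E2F letters were present in 6 of 7 licensing genes and in 1 of 17 mitotic genes, which was Cdk1, against 2.61% of 27025 genes with a promoter. TTTGAA was found in 12 of 17 mitotic genes and 1 of 7 licensing genes, against 20.2% of all. All 12 of those mitotic genes also held CCAAT, a combination present in 8.97% of all genes. No E2F letters or TTTGAA were found for the 5 nucleotide and clamp genes. Matches overlapped in 5 of the genes (Cdca8, Mcm5, Mcm6, Mcm7 and Ube2c). A match is a description of the letters and not of a bound factor. The 180 bases before the start follow for 3 licensing and 3 mitotic genes, to set the letters of both classes side by side, with matched letters in capitals (ATTGG and TTCAAA are CCAAT and TTTGAA on the other strand).
Mcm2 (chr6:88898781-88898960, minus strand): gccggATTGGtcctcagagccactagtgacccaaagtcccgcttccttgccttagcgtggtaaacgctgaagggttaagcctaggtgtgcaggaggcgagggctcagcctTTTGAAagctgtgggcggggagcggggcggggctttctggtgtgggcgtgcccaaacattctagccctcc
Mcm5 (chr8:75109329-75109508, plus strand): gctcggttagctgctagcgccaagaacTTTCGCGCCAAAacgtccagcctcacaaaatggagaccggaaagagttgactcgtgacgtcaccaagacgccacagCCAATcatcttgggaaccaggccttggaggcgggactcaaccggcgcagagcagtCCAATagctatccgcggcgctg
Mcm6 (chr1:128359706-128359885, minus strand): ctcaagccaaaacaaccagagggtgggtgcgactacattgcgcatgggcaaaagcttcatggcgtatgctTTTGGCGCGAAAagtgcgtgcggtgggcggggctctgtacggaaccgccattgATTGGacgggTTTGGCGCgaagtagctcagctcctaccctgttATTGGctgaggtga
Ccnb2 (chr9:70421555-70421734, minus strand): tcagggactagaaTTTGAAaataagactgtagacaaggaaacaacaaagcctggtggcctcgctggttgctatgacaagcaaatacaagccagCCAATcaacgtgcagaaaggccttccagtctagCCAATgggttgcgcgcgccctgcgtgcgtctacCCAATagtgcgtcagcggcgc
Mki67 (chr7:135716380-135716559, minus strand): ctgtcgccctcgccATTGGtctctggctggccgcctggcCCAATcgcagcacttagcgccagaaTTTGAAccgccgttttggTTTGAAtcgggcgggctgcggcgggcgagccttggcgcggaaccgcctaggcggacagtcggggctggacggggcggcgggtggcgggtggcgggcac
Top2a (chr11:99024190-99024369, minus strand): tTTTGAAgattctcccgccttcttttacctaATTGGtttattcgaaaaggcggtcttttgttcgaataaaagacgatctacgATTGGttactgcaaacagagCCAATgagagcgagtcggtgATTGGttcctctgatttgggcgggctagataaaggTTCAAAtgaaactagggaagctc
Mcm5 and Mcm6 carry E2F letters in these stretches, and Ccnb2, Mki67 and Top2a carry TTTGAA together with CCAAT. Mcm2 is the licensing gene that holds TTTGAA, with a CCAAT match farther from the start and no E2F letters in its 300 bases.

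The libraries held between 42380840 and 54878210 counts. ILC1 and NK identity genes summed to between 13641 and 14729 CPM in every library (counts scaled to library size with the TMM factors of edgeR), and none of the 12 was at 0. Inpp4b, the targeted gene, measured 78.7 and 106.5 CPM in controls 1 and 2, against 142.5 and 86.0 in libraries 3 and 4. The edgeR adjusted p was 0.828 for a log2 fold change of 0.30 with SE 0.28, so the whole-gene count does not check the genotype labels, and directions are those of the libraries labelled knockout. Ncr1, whose name the iCre carries, had 1672 and 1772 CPM in controls 1 and 2 and 1202 and 1077 in libraries 3 and 4. Its log2 fold change was -0.60 (95% interval -0.92 to -0.27), with an adjusted p of 0.28 by edgeR and 0.0149 by DESeq2, and both libraries labelled knockout lay below both controls. Sums of conventional NK, monocyte, class II and T cell markers were higher in both of those libraries, and they are given with the mitotic genes. The neutrophil sum was also higher in both, at 102.5 and 94.5 CPM against 244.8 and 154.6, and Mmp9 made up most of it. Hepatocyte markers summed to 172.9 and 107.7 CPM against 176.2 and 185.7.

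Libraries of both groups held abundant licensing and clamp transcripts and few mitotic ones. Scaled to exon length, the median licensing gene stood at 12.3, 15.6, 11.9 and 15.3 CPM per kb in libraries 1 to 4, and the median mitotic gene at 0.41, 0.31, 0.38 and 1.16 CPM per kb. Mcm4 (41.7 CPM per kb over the 4 libraries), Pcna (41.5) and Hmgb2 (57.1) were the most abundant, and they exceeded between 89.0% and 93.8% of tested protein-coding genes in every library. At the other end, Ccna2 (0.118 CPM per kb), Bub1 (0.171), Cenpe (0.176) and Ube2c (0.033) lay among the lowest. The licensing class is not uniform, since the loading factors Cdc6 (0.537 CPM per kb) and Cdt1 (2.29) and the GINS subunit Gins2 (0.989) were far below the MCM genes (7.99 to 41.7). Of the mitotic genes, 17 of 21 had fewer than 100 counts in at least 1 library, against 1 of 9 licensing genes, so single mitotic values are the less precise.

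**Figure D1:**
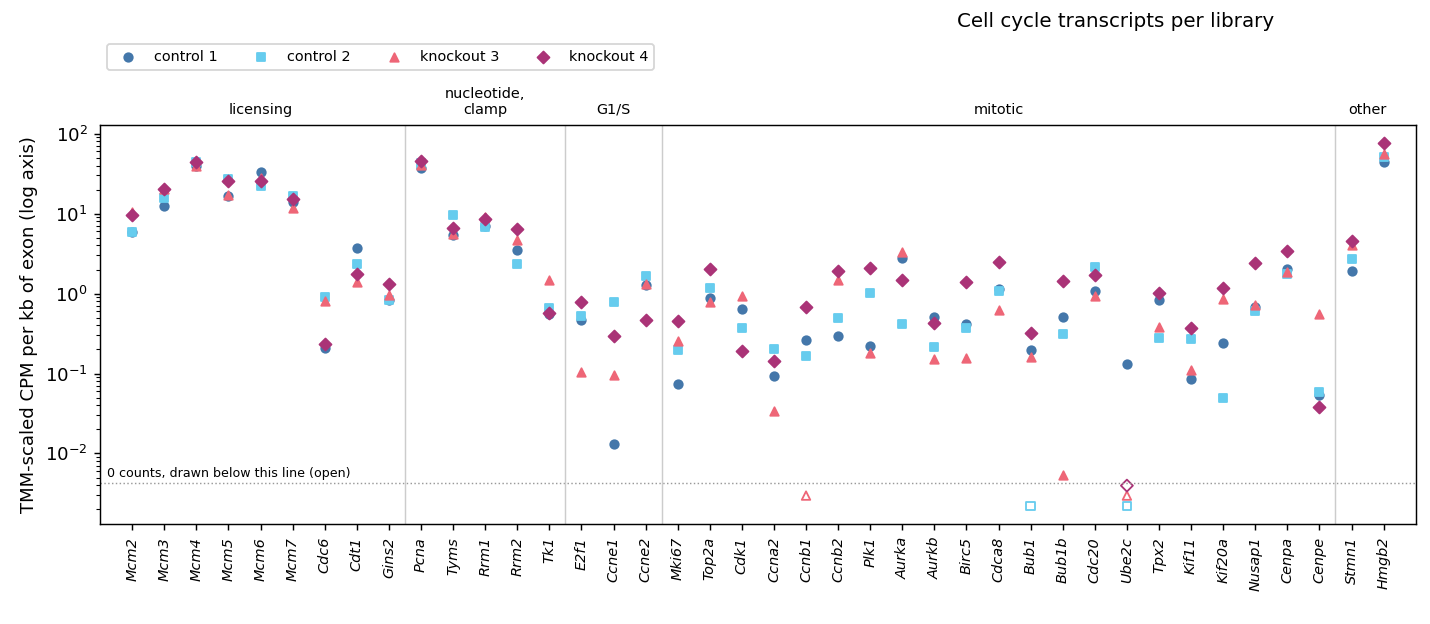
TMM-scaled CPM per kb of exon (log axis) of the 40 genes, 1 symbol per library, grouped by role. The MCM genes, Pcna and Hmgb2 lie above 5 CPM per kb in every library, and most mitotic genes lie below 2, with values of 0 counts drawn as open symbols under the dotted line.

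No member passed the edgeR test between the groups, and Mcm2 alone passed with DESeq2. edgeR's quasi-likelihood test called 0 of the 39 genes that passed the filter on low counts (Ube2c did not), beside 0.141% of 14863 genes called higher and 0.0135% called lower. At an unadjusted p under 0.05, 6 were higher (Mcm2, Mcm3, Rrm2, Ccnb2, Kif20a and Hmgb2) and 0 lower, against backgrounds of 4.48% higher and 5.17% lower. Mcm2 was the 1 member that DESeq2 called, and it was higher, with a background of 1.61% higher and 1.29% lower, and limma-voom called 0. Both libraries labelled knockout lay above both controls for 11 of the 39 genes and below both for Cdt1 alone, while 19.5% and 20.8% of all tested genes did so. The median log2 fold change was -0.01 for licensing, 0.34 for nucleotide and clamp genes, -0.71 for the G1/S regulators and 0.61 for the mitotic genes, beside -0.01 over all tested genes.

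**Figure D2:**
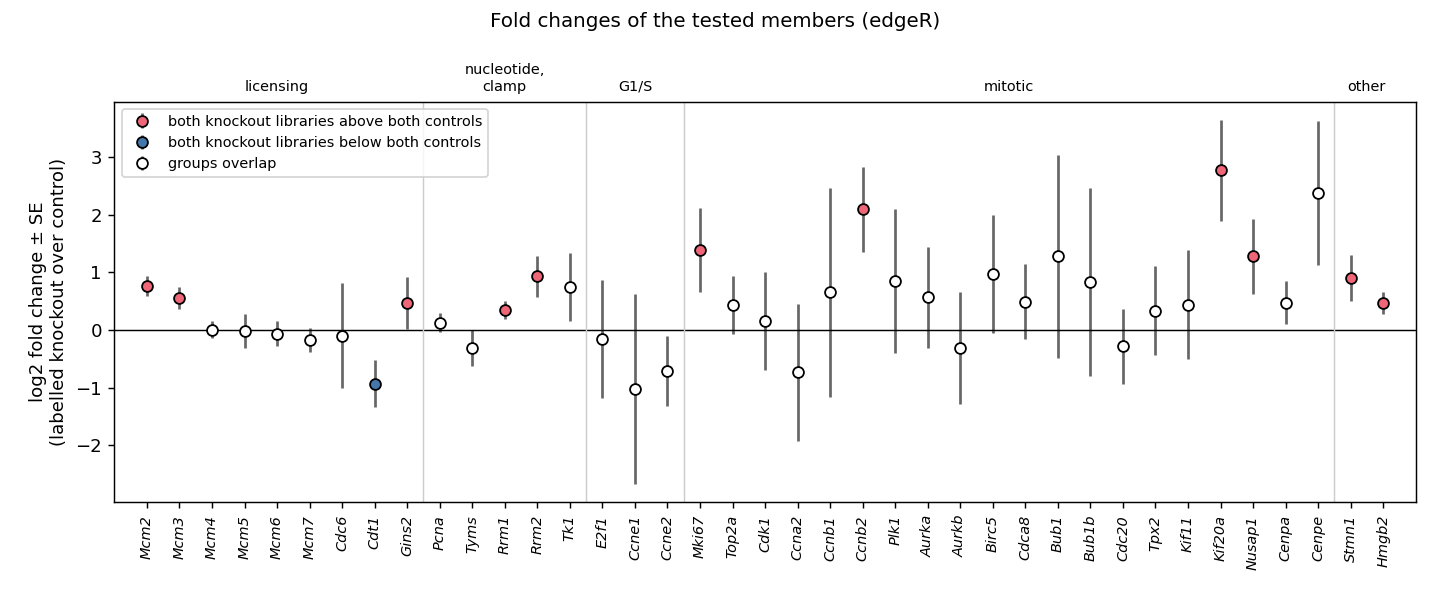
Log2 fold change (libraries labelled knockout over control) with its SE for the 39 tested genes, grouped by role, with coloured symbols where the groups of 2 libraries do not overlap. Bars are short for the MCM genes, Pcna and Rrm1 and long for the mitotic genes, and no gene passes the adjusted threshold.

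Among the subunits of the MCM ring, Mcm2 and Mcm3 were higher in both libraries labelled knockout and the other subunits overlapped between groups. Mcm2 (chromosome 6, 88883474 to 88898780 in mm10, as are all gene positions) measured 41.3 and 41.0 CPM in the controls, against 73.1 and 66.9 in libraries 3 and 4. The means were 41.2 ± 0.20 and 69.97 ± 4.37 CPM (SD, n = 2 each). Its log2 fold change of 0.76 (SE 0.18) had an edgeR adjusted p of 0.286 and a DESeq2 adjusted p of 0.0135, and lay between 0.68 and 0.80 with any library left out. Mcm3 (chromosome 1, 20802968 to 20820312) was at 46.2 and 58.7 CPM against 77.3 and 76.6, with an edgeR adjusted p of 0.43 for a log2 fold change of 0.55 (SE 0.19). Both groups of 2 libraries stood apart for these genes, by more than the spread within either group.

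The other ring subunits differed little or followed the library rather than the group. Mcm4 was at 141.6, 157.3, 142.4 and 157.9 CPM in libraries 1 to 4, with a 95% interval of the log2 fold change from -0.35 to 0.37. Mcm5 was at 16.5 and 27.1 CPM per kb in the controls, against 17.2 and 26.0 in libraries 3 and 4, so that libraries 1 and 3 were low and libraries 2 and 4 high. Mcm6 was at 154.5, 104.2, 128.6 and 118.9 CPM, with both extremes in the control group. Mcm7 was at 61.1, 74.1, 52.7 and 67.7 CPM, and its exons share 321 bases with Ap4m1 and 64 with Cops6 on the opposite strand, whose reads cannot be told apart where the counting strand is not given. The intervals of Mcm5 (-0.74 to 0.71), Mcm6 (-0.58 to 0.46) and Mcm7 (-0.67 to 0.34) leave room for changes in either direction.

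The loading and activating factors were scarcer and more variable. Cdt1, which brings the ring to the origin and is the member with both libraries labelled knockout below both controls, measured 11.6 and 7.32 CPM in the controls, against 4.42 and 5.49 in libraries 3 and 4. The gene lies on chromosome 8 at 122568015 to 122573554, and edgeR gave an adjusted p of 0.545 for its log2 fold change of -0.93 with SE 0.41. Cdc6, the loading ATPase, was at 1.09 and 4.72 CPM against 4.19 and 1.24, with a high and a low library in each group. Gins2 was at 3.36 and 3.43 CPM against 3.98 and 5.43, and 2758 of its exon bases are shared with Gse1 on the opposite strand.

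Ribonucleotide reductase, which makes deoxynucleotides, was higher in both libraries labelled knockout for both of its listed subunits, without passing the test. Rrm2, the small subunit whose transcript is cell cycle regulated (chromosome 12, 24708241 to 24714146), measured 9.62 and 6.58 CPM in the controls, against 13.1 and 18.0 in libraries 3 and 4 (edgeR adjusted p = 0.487 for a log2 fold change of 0.94 with SE 0.36). Rrm1, the large subunit (chromosome 7, 102441695 to 102469771), was at 77.7 and 74.3 CPM against 99.1 and 93.8 (edgeR adjusted p = 0.548 for a log2 fold change of 0.34 with SE 0.15). Pcna was even across the libraries, at 88.2, 102.1, 97.5 and 110.5 CPM, with an interval of -0.27 to 0.53. Pcna-ps2, a processed pseudogene with 271 to 449 counts per library, may share reads with it. Tyms, the thymidylate synthase gene, was highest in control 2, at 33.3, 59.0, 34.0 and 40.2 CPM. Tk1, the thymidine kinase gene, was highest in library 3, at 2.90, 3.45, 7.72 and 2.94 CPM, and the other libraries lay close together. It shares 83 exon bases with Afmid on the opposite strand.

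The regulators of S phase entry were scarce, and their 3 fold changes lay below 0 with wide errors. E2f1, an activator of replication genes, measured 1.47 and 1.63 CPM in the controls, 0.33 CPM in library 3 and 2.45 CPM in library 4. Ccne1, which encodes cyclin E1, had 2 and 98 counts in the controls and 11 and 40 in libraries 3 and 4, so the control replicates were farther apart than the groups. Ccne2, its paralog, was at 4.41 and 5.74 CPM against 4.58 and 1.62 (edgeR adjusted p = 0.812 for a log2 fold change of -0.71 with SE 0.61). For each of these genes the groups overlapped, and Ccne2 shares 609 exon bases with Ints8 on the opposite strand.

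The summed mitotic transcripts stood apart in 1 library and not between the groups. The 21 genes summed to 55.9 CPM in control 1, 49.7 in control 2, 56.7 in library 3 and 110.4 in library 4. As a share of all counts these were 0.0059%, 0.0048%, 0.0058% and 0.0106%, with an exact 95% binomial interval of 0.0103% to 0.0108% in library 4, an interval for counting error alone, since reads that carry no molecular identifier need not be separate molecules. The licensing sum varied far less, at 526.8, 558.8, 555.5 and 603.9 CPM, and the licensing to mitotic ratio was 9.43, 11.2, 9.79 and 5.47. Library 4 held the highest value for 14 of the 21 mitotic genes, against 2 of 9 licensing genes, and was the highest for 25.7% of all tested genes. The log2 ratio of the mitotic sums was 0.66 with all libraries and 0.10 without library 4, a value computed after the data were seen, and the median mitotic fold change turned from 0.61 to -0.56 without it.

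**Figure D3:**
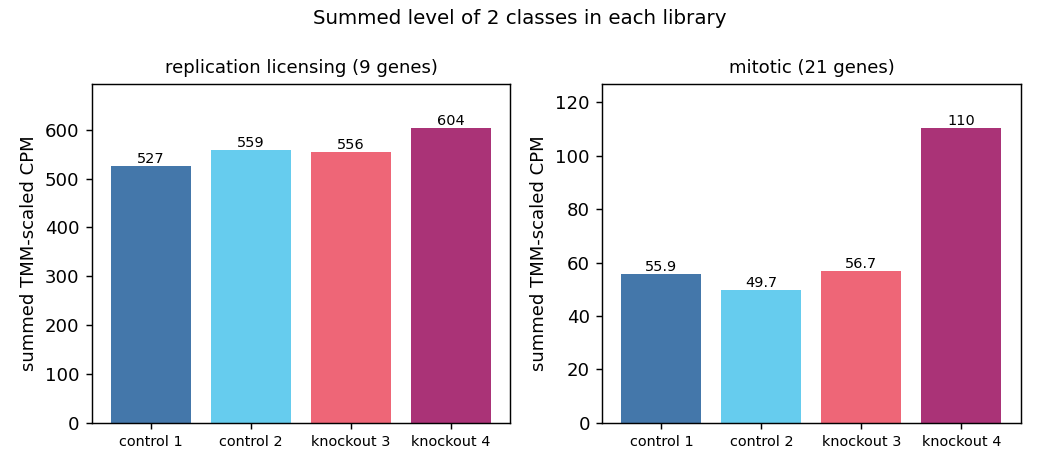
Summed TMM-scaled CPM of the 9 licensing and the 21 mitotic genes in each library, with bars from 0. The licensing sums lie between 526.8 and 603.9 CPM, and the mitotic sum of knockout library 4 (110.4 CPM) is the high bar beside 3 bars of 49.7 to 56.7 CPM.

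Of the general proliferation markers, Mki67, the gene of the Ki-67 antigen that coats mitotic chromosomes, measured 0.74 and 1.97 CPM in the controls, against 2.54 and 4.56 in libraries 3 and 4. The groups did not overlap, but control 1 was farther below control 2 in ratio than control 2 was below library 4 (log2 fold change 1.39, 95% interval -0.38 to 3.16). Top2a, which encodes the topoisomerase that untangles sister chromatids, was at 7.85, 10.7, 6.98 and 18.2 CPM, with library 4 high and the other libraries close together. Library 4 was high in the same way for Nusap1, a spindle protein gene, at 2.79, 2.43, 2.91 and 9.82 CPM (edgeR adjusted p = 0.605 for a log2 fold change of 1.28 with SE 0.65), and for Cenpa, the centromeric histone gene, at 11.7, 10.4, 10.9 and 19.9 CPM.

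The mitotic cyclins and their kinase had different patterns across the libraries. Ccnb2, which encodes cyclin B2 (chromosome 9, 70407692 to 70421547), measured 0.45 and 0.76 CPM in the controls, against 2.28 and 2.92 in libraries 3 and 4, from 26, 36, 98 and 151 counts (edgeR adjusted p = 0.44 for a log2 fold change of 2.10 with SE 0.74). Its groups did not overlap, while its pseudogene Ccnb2-ps held 108, 32, 88 and 20 counts, reads that may be shared between the copies. Ccnb1, which encodes cyclin B1, had 65 and 33 counts in the controls, 0 in library 3 and 148 in library 4. A count of 0 in library 3 allows up to 0.0698 CPM. Cdk1, the kinase that both cyclins activate, was at 3.19 and 1.82 CPM against 4.65 and 0.95, lowest in the library where Ccnb1 was highest. Ccna2, the cyclin A2 gene, had only 22, 39, 6 and 30 counts.

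The mitotic kinases and the chromosomal passenger complex, which corrects chromosome attachment, varied widely between replicates. Plk1, the polo kinase gene, measured 0.48 and 2.26 CPM in the controls, 0.40 in library 3 and 4.56 in library 4. Aurka, which acts at spindle poles, was at 6.98, 1.06, 8.28 and 3.69 CPM, a pattern that follows neither the group nor library 4. Aurkb, the passenger kinase gene, was at 1.48, 0.63, 0.44 and 1.26 CPM. Its partners Birc5, the survivin gene, at 1.397, 1.27, 0.53 and 4.72 CPM, and Cdca8, the borealin gene, at 5.88, 5.50, 3.21 and 12.8 CPM, were both lowest in library 3 and highest in library 4. The controls lay close together for these partners, between the values of libraries 3 and 4.

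Genes of the spindle checkpoint and of anaphase entry each had a different pattern. Bub1b, which encodes the checkpoint protein BUBR1, had 126 and 63 counts in the controls, 1 in library 3 and 321 in library 4. Bub1, a checkpoint kinase gene, had 50, 0, 30 and 73 counts and was lowest in control 2. Cdc20, the activator of the anaphase-promoting complex, was at 1.98, 3.96, 1.72 and 3.15 CPM and was highest in control 2. Ube2c, the ubiquitin-conjugating enzyme of that complex, had 20 counts in control 1 and 0 in every other library, where 3 counts would amount to 0.0580 to 0.0698 CPM.

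Of the spindle motors, Kif20a had the largest fitted fold change of the members. Kif20a, a kinesin of cytokinesis on chromosome 18 (34624613 to 34633277), measured 1.05 and 0.21 CPM in the controls, against 3.68 and 5.02 in libraries 3 and 4 (edgeR adjusted p = 0.399 for a log2 fold change of 2.77 with SE 0.88). Its groups did not overlap, but 1271 of its exon bases are shared with Cdc23 on the opposite strand, a gene of 3640 to 5285 counts per library. Kif11, the motor that separates the spindle poles, was at 0.64, 2.03, 0.81 and 2.80 CPM. Tpx2, which nucleates spindle microtubules, was at 3.85, 1.29, 1.79 and 4.70 CPM. Cenpe, a kinetochore motor gene, had 27, 24 and 17 counts in libraries 1, 2 and 4 and 205 in library 3. The groups overlapped for Kif11, Tpx2 and Cenpe. Mitotic genes that also share exon bases with a gene on the opposite strand are Ccna2 (510 with Exosc9), Ube2c (592 with Tnnc2), Cdca8 (232 with 9930104L06Rik), Nusap1 (172 with Oip5), Plk1 (156 with Gm44985) and Cdc20 (53 with Elovl1).

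**Figure D4:**
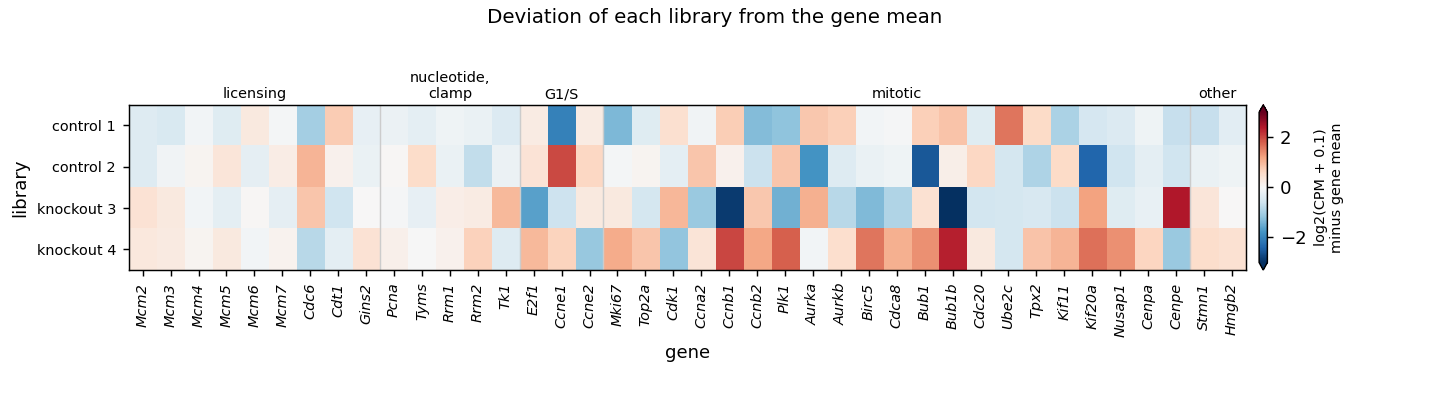
Deviation of each library from the gene mean, in log2(CPM + 0.1), for the 40 genes (columns, by role) in the 4 libraries (rows). The MCM genes, Pcna and Rrm1 are pale throughout, and the row of knockout library 4 is red for most mitotic genes, where it holds the highest value for 14 of 21.

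Replicates of a group differed more for mitotic than for licensing genes. The median difference between control replicates was 0.34 on the log2 scale (CPM + 0.1) for licensing and 0.86 for tested mitotic genes, and between the knockout-labelled replicates 0.31 and 1.44. Over all tested genes it was 0.36 and 0.38, and over the 5475 tested genes averaging 0.5 to 10 CPM, the range of most mitotic members, 0.59 and 0.63. Stmn1, the gene of the microtubule destabiliser stathmin, measured 3.67 and 5.16 CPM in the controls, against 7.77 and 8.72 in libraries 3 and 4. Hmgb2, a chromatin protein gene of dividing cells (chromosome 8, 57511907 to 57515999), was at 133.9 and 153.8 CPM against 168.6 and 229.98 (edgeR adjusted p = 0.515 for a log2 fold change of 0.47 with SE 0.19). Both genes had groups that did not overlap.

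Other genes of the pathway, listed with earlier results of these data known, held none that edgeR called. Of 44 origin recognition and replisome genes, none reached an unadjusted p below 0.05, beside 4.48% of all tested genes higher and 5.17% lower. DESeq2 made 0 calls in this list, and its median log2 fold change was 0.06. The smallest p there was that of Orc1, an origin recognition subunit, at 0.50 and 1.84 CPM against 0.19 and 0.19 (edgeR adjusted p = 0.539), followed by Cdc7, the kinase that fires origins, at 28.3 and 29.3 CPM against 7.59 and 21.1. Orc3 was at 87.2 and 71.8 CPM against 92.9 and 116.4. Of 24 tested G1 cyclins, kinases and pocket proteins, 0 were higher and 2 lower unadjusted, beside the same 4.48% and 5.17%. DESeq2 called Myc lower, with a background of 1.29% lower. Myc, a driver of growth and S phase entry, was at 154.2 and 193.1 CPM against 86.2 and 89.8 (edgeR adjusted p = 0.182 for a log2 fold change of -0.98 with SE 0.17). E2f6, a repressor of the E2F family, was at 4.71 and 7.73 CPM against 1.0005 and 2.15, and Ccnd2, the cyclin D2 gene, at 1630.1 and 2259 CPM against 1236 and 1609.9.

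Among 13 tested inhibitors of cyclin-dependent kinases and quiescence genes, an unadjusted p below 0.05 was reached by 3 that were higher and 1 that was lower. The shares over all tested genes were 4.48% higher and 5.17% lower. Cdkn1a, which encodes the kinase inhibitor p21, measured 2.36 and 2.46 CPM in the controls, against 12.3 and 6.51 in libraries 3 and 4 (edgeR adjusted p = 0.299 for a log2 fold change of 1.97 with SE 0.47). Cdkn1b, which encodes the inhibitor p27, was at 485.3 and 327.5 CPM against 259.9 and 211.4 (edgeR adjusted p = 0.36 for a log2 fold change of -0.79 with SE 0.22). DESeq2 called both. Ccng1, a p53-induced cyclin gene, was at 105.6 and 93.3 CPM against 140.9 and 148.8.

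Of 43 tested further mitotic genes, 4 were higher and 2 lower unadjusted, beside 4.48% and 5.17% of all tested genes. Their median log2 fold change was 0.19, and DESeq2 called Tubb5 lower. Library 4 held the highest value for 24 of the 51 in the table, untested genes with few counts included, and for 25.7% of all tested genes. Tubb5, an abundant beta-tubulin gene with near-identical copies, measured 869.4 and 1837 CPM in the controls, against 255.5 and 313.4 in libraries 3 and 4. Ttk, a checkpoint kinase gene, had 29 and 28 counts in the controls and 0 in both other libraries. Against a floor of 3 counts per library this is at least 8.55-fold lower, a value that takes no account of spread between replicates. It was not called, with an adjusted p of 0.329 by edgeR and 0.167 by DESeq2. Ndc80, a kinetochore gene, was at 2.12 and 3.58 CPM against 7.63 and 8.33 (edgeR adjusted p = 0.385). Tubb5 and Ttk were thus lower and Ndc80 higher in both libraries labelled knockout.

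Library 4 also held the highest sums for markers of several other cell types, and their part in the mitotic sum was not tested. T cell markers summed to 2578 and 2530 CPM in controls, 3069 in library 3 and 4133 in library 4. Of the 15 in the table, 10 were highest in library 4, which was the highest for 25.7% of all tested genes. Cd3g, Trbc1 and Trbc2 made up most of the T cell sum in every library. Trac, which edgeR called, was at 7.31 and 5.67 CPM in controls against 85.1 and 200.9 in libraries 3 and 4. Of the 12 tested, 8 were higher without overlap, Cd3e and Cd8a among them, and 1 was lower (Trbc1), beside 19.5% and 20.8% of all tested genes. Cd247, Cd8b1 and Lef1 overlapped between groups. So did Cd5, with 0, 1, 0 and 19 counts in libraries 1 to 4, and Cd6, with 6, 1, 8 and 1. Conventional NK markers summed to 107.9 and 120.3 CPM against 382.9 and 966.0 (8 of 12 highest in library 4). Klra7 made up most of that sum in libraries 3 and 4. Klra1 measured 3.74 and 5.97 CPM in controls, 19.0 in library 3 and 327.5 in library 4. Klra7, which edgeR called, was at 27.8 and 37.5 CPM against 250.8 and 520.6. Itga2 was lower in both of these libraries, Klra8, S1pr5 and Cma1 overlapped between groups, and the remaining NK markers were higher in both. Dendritic cell and class II genes summed to 381.7 and 448.5 CPM against 1585 and 2218 (7 of 12 highest in library 4). The genes of that list that edgeR called were H2-Aa, H2-Ab1, H2-Eb1 and Cd74, of class II antigen presentation, and Cd74 alone had 220.1 and 288.0 CPM in controls and 1008 and 1473 in libraries 3 and 4. Its other genes were mixed. Zbtb46, a dendritic lineage factor, had 9.28 and 12.3 CPM in controls and 4.56 and 4.64 in the others, and Flt3 and Clec9a, with at most 13 counts in a library, were also lower there. Cd209a went the other way, at 0.017 and 0.42 CPM in controls and 7.52 and 4.93 in libraries 3 and 4. Xcr1 and Ccr9 were also higher in both libraries labelled knockout, and Siglech and Bst2 overlapped between groups. Erythroid markers summed to 441.3 and 307.7 CPM against 268.3 and 950.3, although Klf1, an erythroid factor, was at 0 counts in libraries 2, 3 and 4. Monocyte and macrophage markers were higher in both libraries labelled knockout and alike within that pair, at 268.1 and 323.3 CPM against 1088 and 1049. Of the 16 tested, 12 were higher without overlap and 1 lower (Clec4f), beside 19.5% and 20.8% of all tested genes. edgeR called Lyz2, at 43.1 and 71.5 CPM against 626.0 and 582.5, and Csf1r, at 8.95 and 14.9 CPM against 77.7 and 74.9. Foxp3, Retnlg and Lyve1 were at 0 counts in every library. In bulk libraries more cells of a type and more RNA per cell cannot be told apart.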

How the data were processed

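RNA of ILC1s was sequenced in 4 libraries made with a low-input SMARTer kit. Whole-number counts of reads per gene were deposited by the authors in 1 table, without normalization. The submitters' processing notes name STAR, featureCounts, DESeq2 and mm10, and the annotation and counting strand are not given in the sources used here. Of 40757 lines, 276 repeated an Ensembl gene with the same counts and were dropped. Column names were matched to samples by sample number and genotype letters. Genes that passed edgeR's filterByExpr (14863) were scaled by TMM and tested with edgeR 4.0.16 (robust quasi-likelihood, Benjamini-Hochberg adjustment over all tested genes, 2 residual degrees of freedom). The SE is the log2 fold change divided by the root of F. CPM per kb used GENCODE M21 exon lengths. Alternatives were other scalings and filters, DESeq2 1.42.0, limma-voom 3.58.1, leaving out each library, and a block on the column numbers. The scripts were tested on simulated data. The genes and lists were chosen with earlier results of these data known. All 40 genes are named, and of each pathway list those with the smallest p.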

Additional observations from a re-analysis of the deposited data

How the results depend on the processing

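The sample titles number the libraries 1 to 4 and share no replicate number, but the count columns of libraries 1 and 3 end in 1 and those of libraries 2 and 4 in 2, and nothing states that these numbers mark a shared animal, batch or day. A replicate block on the column numbers, chosen after the data were seen and leaving 1 residual degree of freedom, called 0 genes higher and 0 lower with edgeR, none of the 40 among them. At an unadjusted p under 0.05 it gave 857 genes higher and 852 lower, of which 6 higher and 0 lower were members. Under this block the mitotic median was 0.38 and Cdc6 (0.0047), Ccne1 (0.43), Cdk1 (-0.19), Ccnb1 (-1.46) and Bub1b (-1.24) reversed. Across 14863 genes the replicate differences of both groups, ordered by column number, correlated with r = 0.12. Where a library was left out, the lone sample of its group is assumed to vary like the other group. Over all genes, edgeR called 6 lower with plain library totals, 299 higher and 264 lower without a filter, and 40 higher and 9 lower with a stricter filter, while DESeq2 called 235 higher and 188 lower. Of the 40 genes, 1 was called higher without a filter (Kif20a, 2.74 on the log2 scale) and 1 by DESeq2 (Mcm2, 0.77). With all libraries, 15 of 348 fold changes reversed, those under the block included. The others were Mcm4 (-0.036 with plain totals, -0.012 without a filter and -0.022 with the stricter one), Mcm5 (0.022 with upper-quartile factors, 0.031 with voom), and with voom Cdc6 (0.024), Ccne1 (0.88), Cdk1 (-0.29), Ccnb1 (-2.06) and Bub1b (-1.62). Leaving out each library in turn gave 0 to 18 genes called higher and 0 to 2 lower. The class medians ranged from -0.068 to 0.39 for licensing (0.39 without control 2), from -0.56 to 1.06 for mitotic genes and from -2.03 to -0.069 for the G1/S regulators, and the log2 ratio of mitotic sums from 0.10 to 1.07. In 31 of 156 such fold changes, over 22 genes, the sign reversed. The ranges were -0.10 to 0.088 for Mcm4, -0.36 to 0.39 for Mcm5, -0.32 to 0.25 for Mcm6, -1.23 to 1.32 for Cdc6, -0.67 to 0.16 for Tyms, -0.13 to 1.26 for Tk1, -2.27 to 0.64 for E2f1, -2.03 to 3.81 for Ccne1, -0.43 to 0.95 for Top2a, -1.43 to 0.86 for Cdk1, -8.51 to 1.62 for Ccnb1, -1.8 to 2.36 for Plk1, -0.22 to 2.495 for Aurka, -1.29 to 0.42 for Aurkb, -1.34 to 1.798 for Birc5, -0.85 to 1.14 for Cdca8, -6.12 to 1.79 for Bub1b, -0.81 to 0.30 for Cdc20, -0.56 to 1.33 for Tpx2, -0.73 to 1.51 for Kif11, -0.056 to 0.82 for Cenpa and -0.58 to 3.26 for Cenpe. The lowest value of Ccnb1 rests on a group at 0 counts and depends on the prior count. The cause of these shifts was not tested. The remaining 17 tested genes kept their sign under every alternative run. Depth limits the G1/S regulators and the mitotic genes, of which 3 of 3 and 17 of 21 had fewer than 100 counts in a library.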

Other observations

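Summed transcripts of the anaphase-promoting complex, the ubiquitin ligase that Cdc20 activates to end mitosis, were even across libraries although its activator was scarce. Its 17 listed subunits and regulators, all tested, summed to 891.5, 912.2, 924.5 and 948.3 CPM in libraries 1 to 4. None was called by edgeR or DESeq2, 9 fold changes lay above 0 and 8 below, and the median was 0.04 on the log2 scale. Without overlap, 6 were higher and 1 lower in both libraries labelled knockout, beside 19.5% and 20.8% of all tested genes. Single genes were less even than the sum, such as Anapc2 at 55.6 and 26.7 CPM in controls 1 and 2. An unadjusted p below 0.05 was reached by 1 gene, which was lower, beside 5.17% of all tested genes lower. It was Anapc1, the largest scaffold subunit, with 80.6 and 101.1 CPM in controls against 69.8 and 57.6 in libraries 3 and 4 (edgeR adjusted p = 0.491 for a log2 fold change of -0.51 with SE 0.20).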
